A study of Rattus norvegicus with 98 samples.

Results

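The genes described here are 41 genes of the mitotic and DNA replication machinery, measured in epithelial cells from the nose of rats exposed to formaldehyde. The list holds 23 mitosis genes, 17 replication genes and the G1 cyclin gene Ccnd1, and each gene was represented by the single-gene probe set with the highest mean over all 98 arrays. Of the 41 genes, 38 were measured (22 mitosis members, 15 replication members and Ccnd1), out of 14217 genes with a probe set of their own on the array. Tpx2, Cdc6 and Rrm2 were not analysed here, because the probe annotation gave no probe set to either of the first pair alone and gave Rrm2 only probe sets shared with Rrm2l1. The lists were chosen by gene name and not by these values, but with earlier results of the same data known.

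The animals were male F344/NCrl rats, 8 weeks old. They inhaled 0 (air), 0.7, 2 or 6 ppm formaldehyde for 6 h a day, with whole-body exposure, and nasal cells were collected 6 h, 24 h, 5 days, 8 days or 19 days after the exposures began. Exposure on 5 days a week applies to the groups collected at 5, 8 and 19 days, and not to those collected at 6 h or 24 h. In a later set of arrays, other animals inhaled air or 15 ppm, or had distilled water or a 400 mM formaldehyde solution instilled into each nostril (40 ul), and all of these were collected at 6 h. Each of the 24 groups held 4 animals with 1 array each, except for 5 animals at 2 ppm, 5 days and 5 air animals at 8 days. The cells came from level II of the nasal cavity, freed by protease digestion; they were mostly transitional with some respiratory epithelium. The comparison by dose, route and time asks where and when formaldehyde acted on this tissue. The 8-day collection is given by the sample labels and not by the study's design text, and 1 label field of the 0.7 ppm, 8-day animals reads 0.07 ppm where their other labels read 0.7 ppm.

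A cell that divides first copies its DNA and then separates the copies. The genes of the replication machinery, many of them targets of E2F transcription factors, are transcribed as cells leave G1 and enter S phase, whereas genes for spindle, kinetochore and cytokinesis proteins are transcribed later, in G2 and mitosis, many of them through promoters with a cell cycle genes homology region (CHR). In nasal epithelium, cell replacement after injury by irritant vapours is part of how formaldehyde is known to act, and Pcna is in addition a gene that the DNA damage response through p53 can induce.

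The start regions of 6 members, 3 mitosis and 3 replication genes among those called in the most comparisons, are shown as examples of the start regions searched for motifs of both classes. Each is the 250 bases before the annotated start, read 5′ to 3′ on the gene's own strand from RefSeq's rat assembly GRCr8, with matches to the CHR (TTTGAA), the CCAAT box (CCAAT) or an E2F motif (TTTCCCGC, TTTCGCGC, TTTGCCGC or TTTGGCGC), on either strand, in capitals. The mitosis genes are Bub1b, a spindle checkpoint kinase (chr3:126016817-126017066, plus strand), Ccnb1, cyclin B1 (chr2:33655226-33655475, minus strand), and Prc1, which bundles microtubules of the dividing cell's midzone (chr1:143659231-143659480, plus strand). The replication genes are Pcna, the sliding clamp of DNA polymerases (chr3:139955821-139956070, minus strand), Rrm1, the large subunit of ribonucleotide reductase (chr1:166235654-166235903, plus strand), and Mcm6, a subunit of the replicative helicase (chr13:42404353-42404602, minus strand).
Bub1b: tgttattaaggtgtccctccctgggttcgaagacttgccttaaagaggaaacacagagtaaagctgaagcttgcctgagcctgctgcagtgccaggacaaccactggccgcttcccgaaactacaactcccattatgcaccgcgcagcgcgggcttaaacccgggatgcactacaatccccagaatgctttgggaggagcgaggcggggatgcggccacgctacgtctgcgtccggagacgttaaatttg
Ccnb1: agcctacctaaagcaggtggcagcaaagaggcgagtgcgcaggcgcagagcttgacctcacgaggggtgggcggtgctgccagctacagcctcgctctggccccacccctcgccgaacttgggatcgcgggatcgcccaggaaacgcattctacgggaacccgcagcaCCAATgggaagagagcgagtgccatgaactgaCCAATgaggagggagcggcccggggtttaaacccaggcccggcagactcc
Prc1: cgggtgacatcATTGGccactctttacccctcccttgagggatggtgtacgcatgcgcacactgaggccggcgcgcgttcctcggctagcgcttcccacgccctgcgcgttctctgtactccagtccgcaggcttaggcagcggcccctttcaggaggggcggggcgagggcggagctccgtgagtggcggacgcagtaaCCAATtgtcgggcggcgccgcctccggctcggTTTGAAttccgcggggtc
Pcna: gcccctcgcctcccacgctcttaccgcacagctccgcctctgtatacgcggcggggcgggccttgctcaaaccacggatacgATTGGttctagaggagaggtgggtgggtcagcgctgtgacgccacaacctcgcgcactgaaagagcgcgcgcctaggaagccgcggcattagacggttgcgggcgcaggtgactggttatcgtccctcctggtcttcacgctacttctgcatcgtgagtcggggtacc
Rrm1: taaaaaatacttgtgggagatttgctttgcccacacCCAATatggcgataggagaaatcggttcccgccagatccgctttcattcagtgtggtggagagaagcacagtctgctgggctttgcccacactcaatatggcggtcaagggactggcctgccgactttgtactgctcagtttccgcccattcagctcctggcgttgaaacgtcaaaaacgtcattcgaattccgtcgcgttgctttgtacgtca
Mcm6: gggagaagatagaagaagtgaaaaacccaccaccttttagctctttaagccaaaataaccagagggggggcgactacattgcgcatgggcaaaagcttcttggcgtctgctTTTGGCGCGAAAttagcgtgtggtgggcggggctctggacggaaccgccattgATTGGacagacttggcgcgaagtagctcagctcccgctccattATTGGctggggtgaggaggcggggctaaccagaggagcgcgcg

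In Prc1 the CHR lay 18 to 13 bases before the start, with a CCAAT box 50 to 46 bases before it. Ccnb1 held 2 CCAAT boxes, at 82 to 78 and 50 to 46 bases before its start, and no CHR match in this window. In Mcm6, 2 overlapping E2F matches on opposite strands lay 139 to 132 and 135 to 128 bases before the start. Pcna and Rrm1 held 1 CCAAT box each, and Bub1b held none of these letters.

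Promoter windows were found for 30 of the 38 measured members (18 mitosis genes with 19 windows and 12 replication genes with 12). Ccna2, Aurkb, Racgap1, Ube2c, Mcm4, Ccne2, E2f1 and Ccnd1 had no entry. The CHR letters were in 8 of the 19 mitosis windows (42.1%), those of Mki67, Top2a, Ccnb2, Cdk1, Cdc20, Birc5, Kif23 and Prc1, against 1 of 12 replication windows (8.33%, Mcm2) and 16.2% of all 33469 windows. An E2F motif was in 6 of 12 replication windows (50.0%), those of Mcm2, Mcm5, Mcm6, Mcm7, Tyms and Gins1, against 1 of 19 mitosis windows (5.26%, Cdk1) and 1.73% of all windows. CCAAT boxes were in 73.7% of mitosis and 58.3% of replication windows and in 34.0% of all. A match describes the letters and is neither a shown binding site nor a cause of any value below.

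Values are the authors' deposited log2 signals, and each array's median lay between 5.94 and 6.07. Markers of epithelial and basal cells, Epcam, Krt8, Krt5 and Krt15, were above the 98th percentile of all probe sets. So were Omp, the olfactory marker protein, and Col1a1 of stromal cells, and the summed linear signal of 8 olfactory markers ranged from 1423 to 32161 over all animals. Other markers of the same lists were lower, such as Cldn7 of epithelium (percentile 88.6) and Col17a1 of basal cells (76.6). In the olfactory and stromal lists, Neurog1 (34.3), Pecam1 (55.8) and Pdgfrb (56.1) were examples. In these bulk samples fewer cells of a type and less RNA per cell cannot be told apart. Of the 38 members, 26 had a mean above the median of all probe sets.

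**Figure D1:**
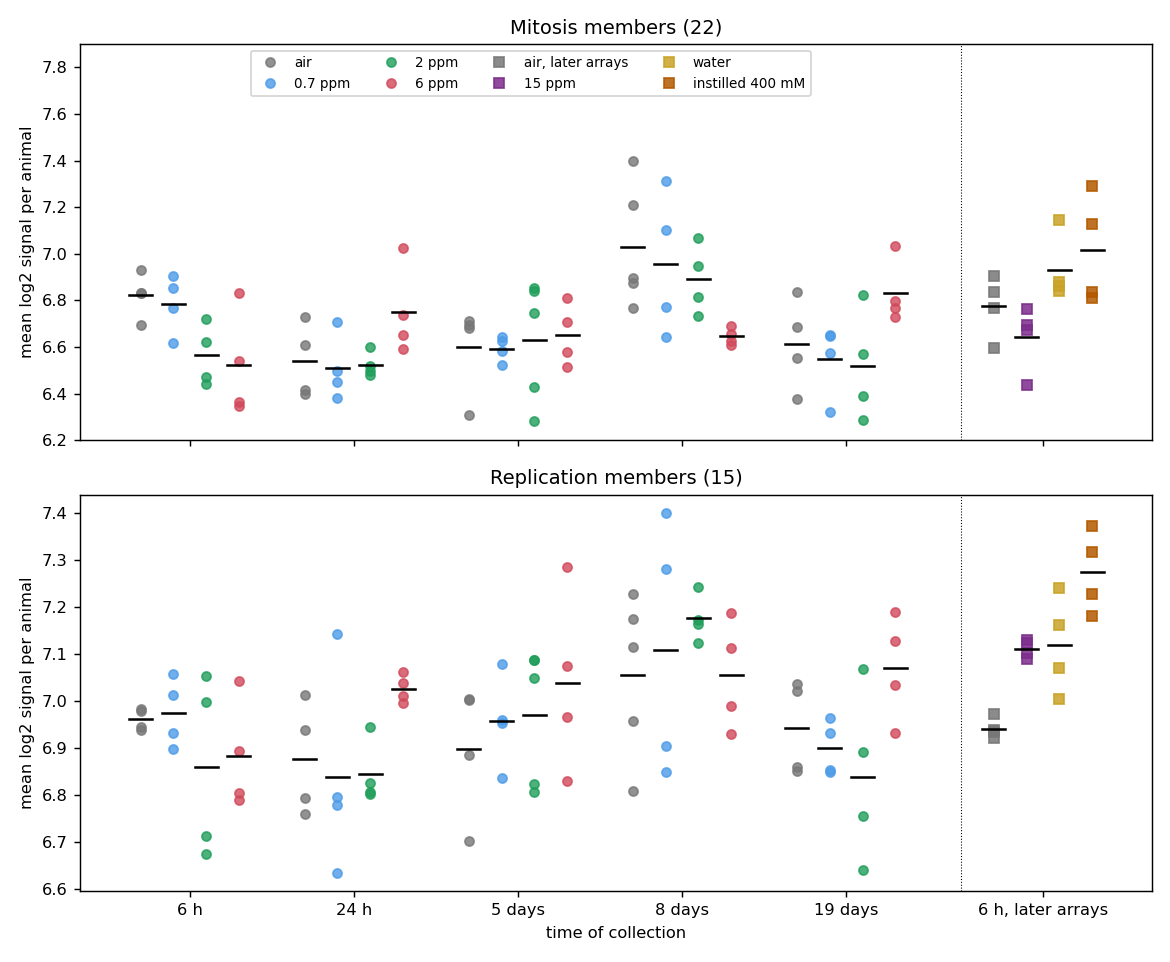
Mean log2 signal of the 22 mitosis members (top) and of the 15 replication members (bottom) in each animal, by time of collection on the horizontal axis and dose by colour, with circles for the first array set, squares for the later set and a bar at each group mean. The 5 air animals at 8 days (6.77 to 7.40 for mitosis) reach above every other group, the 4 animals at 6 ppm at 8 days sit between 6.61 and 6.69, and the 15 ppm animals lie above their air controls for replication but not for mitosis.

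After inhalation of 15 ppm for 6 h, Pcna, the sliding clamp, rose 1.73-fold, Ccne2, a G1/S cyclin, rose 1.33-fold, and Racgap1, which organises the cytokinetic ring, fell 1.51-fold. By limma's test with Benjamini-Hochberg adjustment over 31042 probe sets at 0.05, these were 3 of 38 members called, against 8.49% of all probe sets, so the share called was near that of the array as a whole. None of the usual proliferation genes Mki67, Top2a, Ccnb1 and Cdk1 was called.

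Pcna measured 11.80, 11.85, 11.98 and 12.05 in the 15 ppm animals and 11.10, 11.11, 11.15 and 11.15 in the air animals. The groups were far apart, and the difference was 0.79 (SE 0.09, limma adjusted p = 5.20e-11). An exact two-sided permutation test gave p = 0.0286, the smallest that 4 animals against 4 allow.

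Racgap1 measured 7.59, 7.82, 7.98 and 8.03 at 15 ppm and 8.41, 8.43, 8.46 and 8.50 in air. The groups did not overlap, as was so for 4 of the 38 members and 16.3% of all probe sets. The difference was -0.59 (SE 0.14, limma adjusted p = 0.00145), and the gene's second probe set gave -0.57 (limma adjusted p = 0.016).

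Ccne2 is the weakest of these calls. Its values were 4.80, 5.00, 5.14 and 5.33 at 15 ppm and 4.50, 4.64, 4.64 and 4.83 in air, which overlap. The difference of 0.41 (SE 0.14) had a limma adjusted p of 0.0475, its second probe set differed by -0.003, and the call was lost in 6 of the 8 fits that left out 1 animal.

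The antigen Ki-67 gene Mki67, a general mark of cycling cells, measured 6.59, 6.64, 6.83 and 7.12 at 15 ppm and 6.47, 6.53, 6.80 and 6.95 in air. The groups overlapped and differed by 0.10 (SE 0.24, limma adjusted p = 0.876; exact two-sided permutation p = 0.571). The differences of Top2a, a topoisomerase that untangles replicated chromosomes, Ccnb1 and its kinase partner Cdk1 were -0.27, -0.12 and -0.15. Mcm6 of the helicase and E2f1, the S-phase transcription factor, differed by 0.06 and 0.07, and Ccnd1, the cyclin of G1 progression, by -0.08.

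Over the classes, 16 of 22 mitosis members lay below their air controls (median difference -0.13) and 12 of 15 replication members above (median 0.11), with a median of 0.007 over all probe sets. The mean log2 signal of the replication members minus that of the mitosis members, of which only differences between animals have a meaning, was 0.34, 0.43, 0.45 and 0.65 at 15 ppm. In air it was 0.07, 0.09, 0.16 and 0.34. Except for 1 air animal at the level of the lowest exposed one, the exposed animals were higher.

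Among wider lists of genes, the cell cycle regulators held 5 genes that rose and 1 that fell, of 36, beside the 8.49% of all probe sets called. Cdkn1a, the p21 inhibitor of cyclin-dependent kinases, rose 2.23-fold, Myc rose 2.52-fold, E2f5 rose 1.53-fold, and E2f2 and Ccng2 rose 1.73-fold and 1.32-fold, while the retinoblastoma-related gene Rbl2 fell 1.34-fold. Of 44 further replication genes 4 rose, namely Nasp and Slbp, which handle histones and histone mRNA, Donson, a replisome factor, and the origin licensing gene Cdt1. In the same list Rpa1, of the single-strand binding complex, fell 1.30-fold. Of 43 further mitosis genes 1 rose, Cks2, a small partner of Cdk1, by 1.88-fold.

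Neutrophil markers moved with this dose, 4 of 6 being called up (4.32% of all probe sets up), and their summed linear signal was 3662 to 4484 at 15 ppm against 833 to 1455 in air. The summed epithelial markers were 21725 to 26302 at 15 ppm and 19522 to 21638 in air, also without overlap. The sums of the other marker lists overlapped. The part of these markers in the member results was not tested. RNA integrity numbers were 7.7 to 8.2 at 15 ppm and 7.3 to 7.8 in air, and with that number as a covariate the Pcna difference was 0.77. With the first set's air animals as controls, 5 members were called (15.3% of all probe sets): Pcna, Mcm5 and Ccne2 up, Racgap1 and Rfc4 down.

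**Figure D2:**
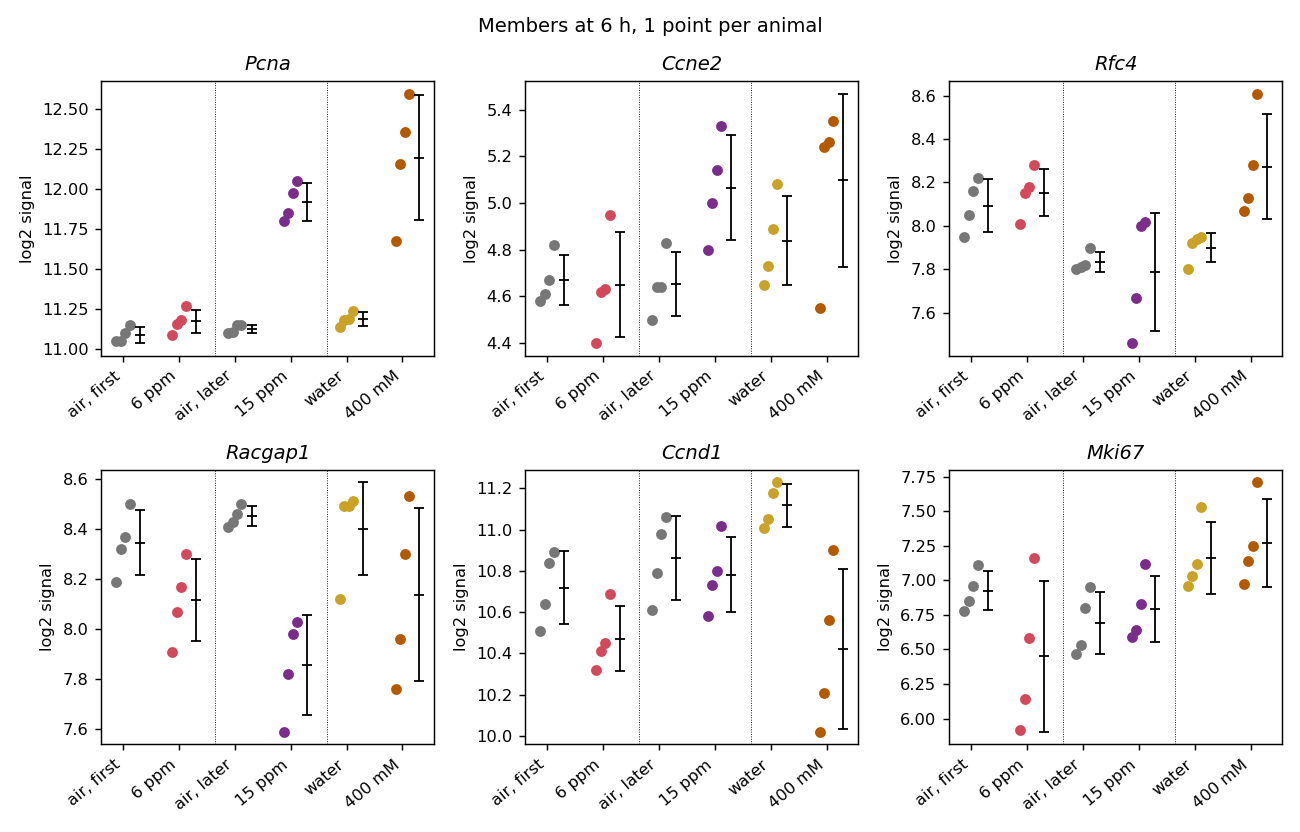
Log2 signal (vertical axis) of the 5 members called at 15 ppm or after instillation, and of Mki67, in each animal collected at 6 h, with the mean and SD beside the points and dotted lines that separate the 3 control and treated pairs. Pcna is above its controls in all 4 animals at 15 ppm and all 4 after 400 mM, Ccnd1 is below water in all 4 instilled animals, and Mki67 overlaps its controls in every pair.

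At 6 h after instilled formaldehyde, a single 400 mM dose into the nostrils, Pcna rose 2.01-fold, Rfc4, a subunit of the complex that loads the clamp onto DNA, rose 1.30-fold, and Ccnd1 fell 1.62-fold. These were 3 of 38 members called, against 22.2% of all probe sets.

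Pcna measured 11.68, 12.16, 12.36 and 12.60 after formaldehyde and 11.14, 11.18, 11.19 and 11.24 after water. All 4 formaldehyde animals were above the water animals, with 1 of them nearer to the controls. The difference was 1.01 (SE 0.09, limma adjusted p = 1.08e-15; exact two-sided permutation p = 0.0286).

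Rfc4 measured 8.07, 8.13, 8.28 and 8.61 after formaldehyde and 7.80, 7.92, 7.94 and 7.95 after water. The groups did not overlap, as in 6 of 38 members and 18.7% of all probe sets, and differed by 0.37 (SE 0.11, limma adjusted p = 0.00876). Without formaldehyde animal 365 the difference was 0.26 and no longer called (limma adjusted p = 0.102).

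Ccnd1 measured 10.02, 10.21, 10.56 and 10.90 after formaldehyde and 11.01, 11.05, 11.18 and 11.23 after water. The groups did not overlap and differed by -0.70 (SE 0.14, limma adjusted p = 0.000118). Its other probe sets gave -0.34 and -0.37, both called (limma adjusted p = 0.029 and 0.04).

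Mki67 measured 6.97, 7.14, 7.25 and 7.71 after formaldehyde and 6.96, 7.03, 7.12 and 7.53 after water. The groups overlapped, with a difference of 0.11 (SE 0.24, limma adjusted p = 0.805; exact two-sided permutation p = 0.543). Top2a, Ccnb1, Cdk1, Mcm6 and E2f1 differed by -0.04, 0.12, 0.09, 0.01 and 0.12. The class medians were 0.10 for mitosis (15 of 22 above 0) and 0.11 for replication (11 of 15 above 0), beside 0.02 over all probe sets. Without formaldehyde animal 372 the calls were 6, with Cdc20, Ttk and Ccne2 added.

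Among further replication genes 5 rose and 7 fell, of 44, beside the 22.2% of all probe sets called. The 4 with the smallest p were Nasp (1.68-fold higher), Lig1, the ligase of Okazaki fragments (1.51-fold lower), Donson (1.70-fold higher) and Pola1, the catalytic subunit of DNA polymerase alpha (1.85-fold lower). Of 43 further mitosis genes 5 rose: Cks2 by 2.21-fold, the spindle protein gene Tacc3 by 1.69-fold, and Pbk, Cks1b and Ccnf by 1.45-fold, 1.37-fold and 1.30-fold. Of 36 regulators 9 rose and 8 fell, led by Cdkn1a (3.21-fold higher), Rbl2 (1.44-fold lower), Cdkn2d (1.99-fold higher) and Ccng2 (1.68-fold higher). The D-type cyclin gene Ccnd2, named after its value was seen because it belongs with Ccnd1, fell 2.60-fold.

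Neutrophil markers were called up in 5 of 6, with a summed signal of 7741 to 14228 against 1451 to 2464 after water. Lymphocyte markers were up in 2 of 8, macrophage markers in 2 of 9 and epithelial markers in 1 of 7, while 2 of 5 ciliated cell markers and 1 of 7 stromal and vessel markers were down. Of all probe sets 9.83% were called up and 12.4% down, so the counts of 1 of 7 were near the share of the whole array. The part of these markers in the member results was not tested.

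Neither control comparison called a member by limma: water against air at 6 h called 0 (0.0129% of all probe sets, with 5 of 38 members at an unadjusted p under 0.05, beside 10.4% of all), and later against first air at 6 h called 0 (4.7%, with 3 of 38 beside 17.3%). The summed olfactory markers were 1423 to 5868 after water and 6529 to 13696 in the later air animals. The epithelial sums were 23369 to 27726 and 19522 to 21638, and neither pair overlapped. In the treated groups the olfactory sums were 1474 to 3026 after instilled formaldehyde and 4212 to 16959 at 15 ppm. The part of these markers in the member values was not tested. The test of the 15 ppm effect minus the instillation effect also called 0 members (0.879%, with 3 of 38 at an unadjusted p under 0.05, beside 9.76%). The called count was 1 without formaldehyde animal 369 or 372. The test of the 15 ppm effect minus the 6 ppm effect at 6 h called only Pcna (1.19%), with a difference of 0.71 (SE 0.12, limma adjusted p = 0.00013). At 6 ppm Pcna measured 11.09, 11.16, 11.18 and 11.27 against 11.05, 11.05, 11.10 and 11.15 in air, which overlap (exact two-sided permutation p = 0.114). These effects come from different array sets, each against its own air animals.

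At 6 ppm most mitosis members lay on the same side of air at a given time, above it at some times and below it at others, and no member passed the test. Their median difference from air was -0.31 at 6 h, 0.19 at 24 h, 0.04 at 5 days, -0.40 at 8 days and 0.23 at 19 days. The replication medians were -0.09, 0.12, 0.14, 0.02 and 0.11, closer to 0 at all of these times except 5 days. By limma 0 of 38 members were called at each time, against 0.245%, 0.00322%, 0.119%, 0.029% and 0.412% of all probe sets in the same order.

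The counts of members at an unadjusted p under 0.05 were 7, 7, 1, 15 and 7 of 38, beside 12.6%, 7.57%, 7.24%, 6.14% and 11.8% of all probe sets. All 15 at 8 days were mitosis genes below air, and 0 of 15 replication members were among them. The F-test for a 6 ppm effect that differs between the 5 times called 0 members (0.0129% of all probe sets), with a smallest adjusted p of 0.155. Its unadjusted p was under 0.05 for 17 of 22 mitosis members and 1 of 15 replication members, beside 6.1% of all probe sets. Mitosis members varied together within groups (median correlation 0.57 over pairs), so a few animals can move many of them. Counts of members at an unadjusted p, here and below, are therefore not counts of separate observations.

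At 8 days the differences were largest for Ccnb2, cyclin B2 (-0.73), Nusap1, which binds spindle microtubules (-0.65), and Kif20a, a cytokinesis kinesin. Nusap1 measured 6.76, 6.98, 6.98 and 7.04 at 6 ppm and 7.26, 7.37, 7.46, 7.89 and 7.97 in the 5 air animals. The groups did not overlap (limma adjusted p = 0.103).

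Ccnb1 measured 7.01, 7.17, 7.19 and 7.20 at 6 ppm and 7.32, 7.32, 7.34, 7.83 and 7.95 in air, also without overlap. The difference was -0.41 (SE 0.11, limma adjusted p = 0.256). Groups did not overlap for 6 mitosis members, Nusap1, Ccnb1, Ccnb2, Kif20a, Top2a and Ccna2, and for 0 replication members, beside 1.65% of all probe sets.

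Top2a measured 6.61, 6.66, 6.67 and 6.88 at 6 ppm and 6.97, 7.06, 7.12, 7.34 and 7.48 in air at 8 days. Cdk1 measured 7.68, 7.83, 7.85 and 7.92 at 6 ppm and 7.78, 8.18, 8.30, 8.47 and 8.52 in air. Cdk1 overlapped through 1 air animal, and Top2a did not overlap. Mcm6 measured 6.84, 6.84, 6.86 and 7.08 at 6 ppm, inside the air range of 6.70 to 7.06 but for its highest animal, and Pcna differed by 0.07 and Rrm1 by -0.11.

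The replication-minus-mitosis value of each animal, which is built from the same member values and is no separate evidence, shows the same split. It was 0.30, 0.30, 0.50 and 0.53 at 6 ppm and -0.17, -0.04, 0.04, 0.06 and 0.24 in air at 8 days, without overlap. RNA integrity numbers were also separate here, 7.7 to 7.8 at 6 ppm (3 of 4 animals have one) against 8.2 to 8.8 in air. With that number as a covariate, over the 85 arrays that have one, the difference of the class medians was 0.42, the same to 2 decimals as without it. At 6 h the RNA integrity numbers were 7.7 to 7.8 at 6 ppm and 7.8 to 8.3 in air. At 24 h they were 8.2 to 8.6 and 7.5 to 8.2, so at both times the ranges only met. They overlapped at 5 days (7.8 to 8.2 and 7.7 to 7.9) and 19 days (8.2 to 8.8 and 8.3 to 8.5). Among the 24 groups, the air animals at 8 days had the lowest mean replication-minus-mitosis value (0.027) and the highest mitosis mean (7.029). In order of time, the 6 ppm means of that value were 0.36, 0.274, 0.385, 0.409 and 0.238. Those of air were 0.139, 0.336, 0.299, 0.027 and 0.329, so 6 ppm was above air at 6 h, 5 days and 8 days and below it at 24 h and 19 days.

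All 8 olfactory markers were below air at 6 ppm, 8 days (median -0.75, none called), with overlapping sums of 2971 to 21391 against 8995 to 26902. All 7 epithelial markers were above air (median 0.27, none called), and their sums did not overlap, at 20250 to 23754 against 17629 to 20005. The part of either in the mitosis values was not tested. Without air animal 65, Nusap1 was called at 8 days (difference -0.73, limma adjusted p = 0.0482).

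At 19 days the mitosis members lay on the other side of air. Ccnb2 measured 7.42, 7.42, 7.89 and 7.96 at 6 ppm and 6.74, 6.84, 7.19 and 7.33 in air. The groups did not overlap, and the difference of 0.65 had a limma adjusted p of 0.158. Ccna2 (0.57) and Mki67 (0.55) were next by p, and groups did not overlap for 5 mitosis members (Top2a, Ccnb1, Ccnb2, Nusap1 and Ttk) and 0 replication members (6.77% of all probe sets). Mki67 measured 6.79, 7.12, 7.29 and 7.38 against 6.39, 6.48, 6.67 and 6.85 in air. Beside these values, the summed basal cell markers were 22789 to 27815 at 6 ppm and 18679 to 21740 in air, and the macrophage markers 7857 to 10652 and 11384 to 14542, both without overlap and with no marker called. Their part in the mitosis values was not tested.

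At 24 h the smallest p belonged to replication members. E2f1 measured 6.00, 6.03, 6.06 and 6.21 at 6 ppm and 5.48, 5.67, 5.78 and 5.92 in air (difference 0.36, limma adjusted p = 0.219). Ccne1, cyclin E1, measured 5.89, 5.90, 5.97 and 6.14 against 5.38, 5.50, 5.55 and 5.72 (difference 0.44). Both genes had no overlap, as had 4 of 15 replication and 1 of 22 mitosis members (4.41% of all probe sets).

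At 5 days groups did not overlap for Ccne2 and E2f1 (4.2% of all probe sets). At 6 h and 5 days the members of each class with the smallest p were Cdk1, Cdc20 and Kif23 and then Rrm1, Tk1 and Tyms (6 h), and Ccnb2, Racgap1 and Birc5 and then E2f1, Mcm5 and Mcm7 (5 days). Cdk1 at 6 h measured 7.38, 7.48, 7.58 and 7.68 at 6 ppm and 7.88, 7.93, 7.98 and 7.99 in air, without overlap (3 of 38 members, 8.82% of all probe sets). The difference was -0.42 (limma adjusted p = 0.185). Mki67 measured 5.92, 6.14, 6.58 and 7.16 at 6 ppm and 6.78, 6.85, 6.96 and 7.11 in air, which overlap (exact two-sided permutation p = 0.2). The summed macrophage markers were 6732 to 9884 at 6 ppm and 10695 to 12222 in air at 6 h, without overlap and with none called, and their part in the member values was not tested.

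Averaged over the 5 times, 6 ppm called only E2f1 among the members, against 6.37% of all probe sets. E2f1 rose by 0.18 (SE 0.04, 1.13-fold, limma adjusted p = 0.00454). Its mean exceeded that of air at each of the 5 times, by 0.08, 0.36, 0.19, 0.07 and 0.17 in order of time. With the RNA integrity number as a covariate (85 arrays) the difference was 0.14 and not called (limma adjusted p = 0.0563). Pcna was 0.11 above air (SE 0.04, limma adjusted p = 0.0644).

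The medians of the averaged differences were -0.06 for mitosis and 0.07 for replication. Of the further genes, Pimreg and Cdca8 fell among 43 of the mitosis list, beside the 6.37% of all probe sets called. In the replication list the exonuclease Exo1, the chromatin assembly factor Chaf1b and Slbp rose, and Lig1, Rfc1, Pold3 and Rfc2 fell. Among regulators Wee1, the kinase that restrains Cdk1, rose 1.30-fold, and Rbl2 and Cdkn1b, the p27 inhibitor, fell 1.16-fold and 1.10-fold.

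**Figure D3:**
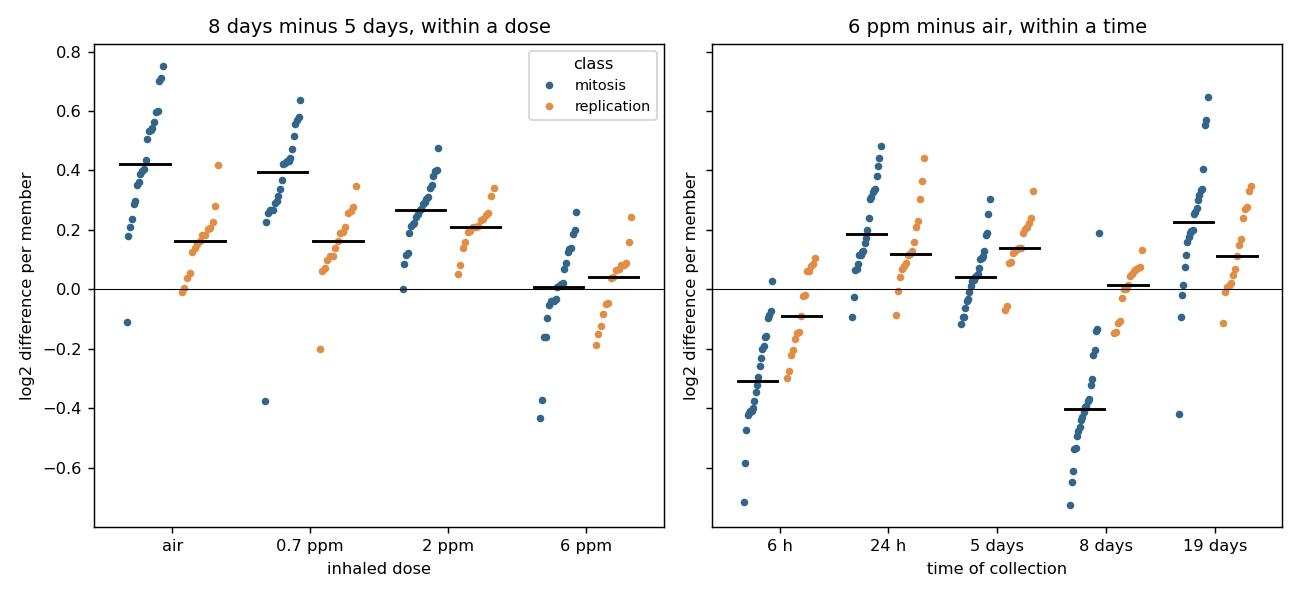
Log2 difference of each mitosis (blue) and replication (orange) member, with a bar at the class median. On the left, 8 days minus 5 days within each inhaled dose, where the mitosis median is 0.42 in air and 0.009 at 6 ppm. On the right, 6 ppm minus air within each time, where the mitosis median is -0.40 at 8 days while the replication median is 0.02.

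At 0.7 and 2 ppm no member was called. By limma 0 of 38 members passed in each of the 10 comparisons of these doses at single times (0.00322% and 0.0741% of all probe sets at 2 ppm, 6 h and 5 days, 0.00644% at 0.7 ppm, 5 days, and 0% in the other 7). At an unadjusted p under 0.05, in order of time, 2 ppm had 4, 0, 0, 2 and 3 members, beside 5.61%, 5.64%, 8.92%, 4.24% and 8.64% of all probe sets. At 0.7 ppm the counts were 0, 0, 1, 0 and 0, beside 1.32%, 6.09%, 2.45%, 3.29% and 2.64%. Averaged over the times, 2 ppm called 0 members (0.361%, with 4 at an unadjusted p under 0.05, beside 10.7%) and 0.7 ppm called 0 (0%, with 0 beside 2.84%).

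At 2 ppm the averaged median was -0.08 for mitosis (20 of 22 below 0) and -0.002 for replication. Cdk1 had the smallest p, with an averaged difference of -0.23 (SE 0.06, limma adjusted p = 0.0821). At 6 h after 2 ppm, Cdk1 measured 7.41, 7.43, 7.63 and 7.76 against 7.88, 7.93, 7.98 and 7.99 in air, without overlap (7 of 38 members, 3.99% of all probe sets), and 21 of 22 mitosis members lay below air (median -0.24). At 8 days after 2 ppm, 19 of 22 mitosis members lay below air and 15 of 15 replication members above, with medians of -0.16 and 0.10.

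At 0.7 ppm the averaged medians were -0.05 and 0.01. The 0.7, 2 and 6 ppm groups of a time share their air animals, so their departures from air at one time are not separate evidence of each other.

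Comparisons by time of collection gave the most calls among the members. They average 16 or 17 animals a time, whereas single-time dose and route comparisons hold 4 or 5 a group. The counts therefore differ in precision and do not rank the factors by size of effect. The F-test over the 5 times, with the 4 inhaled doses averaged, called 31 of 38 members, 20 mitosis, 10 replication and Ccnd1, against 54.7% of all probe sets. Mki67, Birc5, Mcm7, Tk1, Tyms, Ccne1 and Gins1 were the members not called. In air animals alone it called 8 members (11.4% of all probe sets): Ccnb1, Prc1, Nusap1, Bub1b, Kif20a, Plk1 and Top2a of the mitosis class and E2f1 of the replication class. That count was 4 without air animal 64, 5 without 67 and 14 without 65, all collected at 8 days.

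The 8-day collection stood out, with members above those of every other time. Against 5 days 20 members rose and 0 fell, 14 mitosis and 6 replication (24.5% of all probe sets called, 12.8% up), and all 38 differences were above 0 with the probe sets chosen. Ccnd1 was 0.16 higher and not called by its chosen probe set, while another of its probe sets was called down, with differences of -0.34 against 5 days and -0.32 against 6 h (limma adjusted p = 6.37e-05 and 0.000245). The remaining Ccnd1 probe set differed by 0.12 and 0.17 (limma adjusted p = 0.135 and 0.0358), so the probe sets of this gene disagree. The medians were 0.25 for mitosis, 0.15 for replication and 0.03 for all probe sets. Against 6 h 17 rose and 0 fell, 9 mitosis and 8 replication (19.3% called, 11.1% up). Comparisons added after the values were seen gave 28 up against 24 h (25.4% called) and 20 up against 19 days (22.8%). These are averages over doses, and the mean mitosis signal of 6 ppm alone was not highest at 8 days. At 6.645 it was above that at 6 h (6.522), near that at 5 days (6.653), and below those at 24 h (6.752) and 19 days (6.832).

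The members with the smallest p at 8 against 5 days were Ccnb1 (0.31, SE 0.06, 1.24-fold), Prc1 (0.39), Bub1b (0.42), Nusap1 (0.38) and Pcna (0.20). They were followed by the mitotic kinase Plk1 (0.24), Kif20a (0.39) and the checkpoint kinase Ttk (0.29), and limma's adjusted p ran from 1.87e-05 to 0.00247. In air, Ccnb1 measured 7.32, 7.32, 7.34, 7.83 and 7.95 at 8 days and 6.77, 7.06, 7.10 and 7.12 at 5 days. The groups did not overlap, with 2 of the 8-day animals well above the other 3.

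Bub1b in air measured 4.59, 5.00, 5.08, 5.25 and 5.84 at 8 days and 4.18, 4.44, 4.44 and 4.70 at 5 days. It overlapped through 1 animal. Prc1 measured 7.58, 7.81, 7.93, 8.11 and 8.25 against 6.85, 7.36, 7.47 and 7.67, again with a single overlapping 8-day animal.

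Nusap1 measured 7.26, 7.37, 7.46, 7.89 and 7.97 at 8 days against 6.49, 7.00, 7.00 and 7.05. Kif20a measured 6.78, 6.89, 6.95, 7.54 and 7.60 against 5.98, 6.39, 6.59 and 6.64. Neither overlapped. Pcna measured 11.01, 11.15, 11.23, 11.26 and 11.38 at 8 days against 10.87, 10.94, 10.96 and 11.14 at 5 days, which overlap.

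Against 6 h the smallest p were those of Rrm1 (0.21), Cdk1 (0.35), the helicase subunit gene Mcm4 (0.47), E2f1 (0.19), Nusap1 (0.32), Kif20a (0.38), Ccnb1 (0.22) and Mcm6 (0.27). Rrm1 at 2 ppm measured 8.38, 8.40, 8.42 and 8.46 at 8 days against 7.98, 8.04, 8.12 and 8.13 at 6 h. These did not overlap. In air, at 8.30 to 8.47 against 8.20 to 8.28, Rrm1 did not overlap either, but at 0.7 ppm (8.24 to 8.68 against 8.16 to 8.35) and 6 ppm (8.13 to 8.42 against 7.88 to 8.14) it did. Mcm4 at 2 ppm measured 7.22, 7.23, 7.25 and 7.37 against 5.90, 6.52, 6.71 and 6.83, also apart. At the other doses Mcm4 overlapped, at 6.73 to 7.55 against 6.62 to 6.83 in air, 6.49 to 7.61 against 6.56 to 7.03 at 0.7 ppm, and 7.06 to 7.43 against 6.49 to 7.16 at 6 ppm.

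Within single doses the 8-day against 5-day calls were 6 in air (Ccnb1, Nusap1, Bub1b, Kif20a, Prc1 and Plk1; 3.43% of all probe sets), 2 at 0.7 ppm (Ccnb1 and Nusap1; 3.58%), 0 at 2 ppm (4.48%) and 0 at 6 ppm (3.19%). At an unadjusted p under 0.05 the limma counts were 22, 19, 12 and 2 of 38, beside 16.9%, 18.3%, 16.4% and 16.3% of all probe sets. The mitosis medians were 0.42, 0.39, 0.27 and 0.009 in that order of dose, and the replication medians 0.16, 0.16, 0.21 and 0.04. With 6 ppm left out of the average, 25 members rose (19.5% of all probe sets called), 19 of 22 mitosis and 6 of 15 replication. Whether the change differed between doses was tested only through the F-test of the 6 ppm effect given above, which called no member.

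Against 6 h the same split gave 0 calls in air (1.65%), 0 at 0.7 ppm (3.63%), 5 at 2 ppm (Cdk1, Kif20a, Mcm4, Mcm7 and Rrm1; 4.08%) and 0 at 6 ppm (3.4%). The counts at an unadjusted p under 0.05 were 7, 6, 15 and 7 of 38 by limma, beside 12%, 18.1%, 17.1% and 17.8% of all probe sets.

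Of the wider lists, 22 of 43 mitosis genes rose and 1 fell at 8 against 5 days, beside the 24.5% of all probe sets called. They were led by Lmnb1 of the nuclear lamina (1.51-fold), Hmmr (1.33-fold), Kif22 (1.32-fold) and the condensin gene Ncaph (1.29-fold). Smc4 was the gene that fell. Of 44 replication genes 19 rose and 2 fell, led by Cdc45 (1.24-fold), Wdhd1 (1.24-fold), Fen1 (1.19-fold) and Cdt1 (1.28-fold), while Pola2 and Rfc1 fell. Of 36 regulators 10 rose, among them Chek1, Chek2 and Cdk2, and Ccnd3 and Btg1 fell.

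Markers of stroma and vessels moved with this comparison, 6 of 7 being called down (median -0.77). In air their summed signal was 14087 to 23292 at 8 days and 26727 to 34278 at 5 days. Basal cell markers were called up in 3 of 6 and macrophage markers down in 3 of 9. Of all probe sets 12.8% were called up and 11.7% down. RNA integrity numbers had a median of 8.2 at 8 days and 7.9 at 5 days, and with that number as a covariate 13 members were called. The part of the markers in the result was not tested, and time of collection cannot be told apart from age, from the number of exposures or from the handling of each collection.

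Other times called few members. At 24 h against 6 h, 4 of 38 fell and 0 rose (21.7% of all probe sets): Ccnd1 by 0.51 (SE 0.07, 1.42-fold, limma adjusted p = 5.98e-08), Bub1b by 0.26, Ccna2 by 0.32 and the chromosomal passenger kinase Aurkb by 0.30. Ccnd1 in air measured 9.98, 10.24, 10.48 and 10.49 at 24 h and 10.51, 10.64, 10.84 and 10.89 at 6 h. At 6 ppm it measured 9.94, 10.14, 10.16 and 10.47 against 10.32, 10.41, 10.45 and 10.69. The air groups touched without overlapping, and the 6 ppm groups overlapped. These are values of the chosen Ccnd1 probe set. The gene's probe sets disagreed in the 8-day comparisons, and values of the others are not given for 24 h against 6 h.

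At 5 days against 6 h, Mcm6 rose by 0.25 and Bub1b and Plk1 fell by 0.28 and 0.16 (3 of 38, 22.5% of all probe sets). At 19 days against 6 h, Aurkb fell by 0.56 (SE 0.11, 1.47-fold, limma adjusted p = 7.65e-05), Racgap1 fell by 0.21, E2f1 fell by 0.13 and Rfc4 rose by 0.17 (4 of 38, 20.7%). Aurkb has 1 probe set, with a high mean of 10.54 (percentile 96.3). Within groups it ran against the other mitosis members (median correlation -0.27), so its falls are not read as falls of that class.

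**Figure D4:**
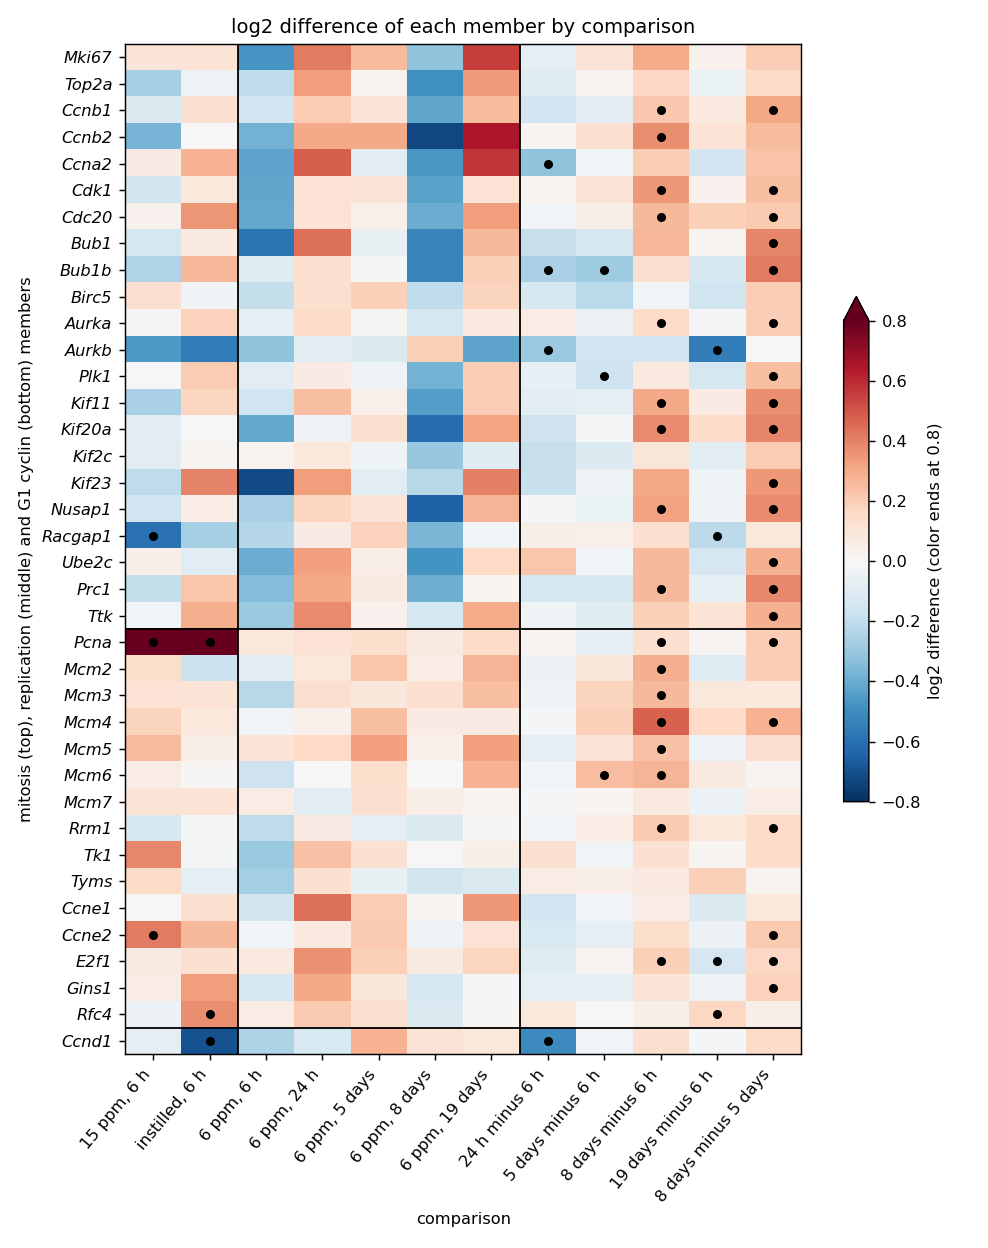
Log2 difference of each of the 38 members (rows; mitosis above, replication below, Ccnd1 last) in 12 comparisons (columns), red for higher and blue for lower, with a dot where limma's adjusted p was under 0.05 and the colour scale ending at 0.8. Pcna is dark red in the first pair of columns, the mitosis block is blue at 6 ppm at 6 h and 8 days without dots, and the dots gather in the 8-day columns.

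Within groups, members of a class varied together from animal to animal. With each group's mean removed, the median Pearson correlation over 98 arrays was 0.57 for the 231 mitosis pairs, 0.36 for the 105 replication pairs and 0.41 for the 330 mixed pairs. The values share the arrays, their normalization and the cell make-up of each sample, so these are descriptions. Ccnb2 and Kif20a had the highest median correlation with the mitosis members (0.71 each). Aurkb (-0.27) and the kinesin gene Kif2c (-0.17) ran against the other mitosis members, and E2f1 had a median of 0.09 with mitosis and 0.14 with replication members. Pcna had 0.32 and 0.31. Kif23, Bub1 and Mki67 varied most between animals of a group (SD 0.39, 0.36 and 0.35), and Mcm7, Pcna and Rrm1 least (0.12 each).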

How the data were processed

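Epithelial cells of the level II nose were profiled on Affymetrix Rat230_2 arrays, 1 array per animal, 98 in all. The deposited values are log2 expression values made by the authors; their summarisation and normalization are not given in the sources used here. Of 31099 probe sets, 57 controls were left out and 31042 tested; 20826 have 1 gene symbol, 436 several (not named) and 9780 none.

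A linear model with 24 groups (74 residual degrees of freedom) was fitted to all arrays in limma 3.58.1 under R 4.3.3, with eBayes moderation and Benjamini-Hochberg adjustment over all probe sets; an adjusted p under 0.05 is called. The script was checked on data with known changes. Single genes were also tested by exact permutation. Class means average the members' log2 values in each animal, and summed marker signals add linear values. The precision is limited by 4 or 5 animals a group.

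The members and lists were chosen with earlier results of these data known. Values per animal were planned for members called in a dose comparison (up to 8), for Mki67, Top2a, Ccnb1, Cdk1, Pcna, Mcm6, E2f1 and Ccnd1, and otherwise for the members with the smallest p in each class. They are printed for part of the comparisons, with only differences or gene names in the rest. Rrm2, also in that rule, was not measured singly. From the wider lists, up to 4 called genes are named by smallest p, and any gene behind a count of 5 or fewer. Alternatives were the RNA integrity number as a covariate, each array set fitted apart, cyclic loess, trend and robust moderation, a low-level filter, second probe sets, narrower classes, class means for medians, and each animal left out. Promoters are RefSeq's (GRCr8), searched over the 250 bases before the start.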

Additional observations from a re-analysis of the deposited data

Results flagged for a closer look

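Of 90 groups of 4 or 5 animals checked for an animal far from the rest, 7 had one, where chance flags about 1 in 20 groups. Among class means, 1 animal at 2 ppm and 24 h was high for replication (6.94), 1 air animal at 5 days low for mitosis (6.31) and 1 water animal high for mitosis (7.14). Among single genes, Ccnb1 was low (7.01) and Mcm6 high (7.08) in 1 animal each at 6 ppm and 8 days, Ccne2 was low (4.55) in 1 animal instilled with formaldehyde, and Racgap1 was low (8.12) in 1 water animal.

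The effect on Pcna at 6 h differed between 15 ppm and 6 ppm, by 0.71 on the log2 scale (limma adjusted p = 0.00013).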

How the results depend on the processing

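No paired analysis was possible because no animal number occurs in more than 1 group. Counts are members called. At 15 ppm the count was 5 with the first set's air animals. After instillation it was 5 with array sets fitted apart, and 3 to 6 when 1 animal was left out. The 6 ppm mean gave 0 with the RNA integrity covariate, 2 with array sets apart and 2 with cyclic loess. With low probe sets left out it gave 0, because that filter removed E2f1 itself (mean 5.96, cut at 6.05). The E2f1 call was thus not retested there. Without 1 animal the 6 ppm mean gave 1 to 3 (3 without 6 ppm animal 294, and 2 without 6 ppm animal 301 or 308 or air animal 63 or 67). At 19 days against 6 h the covariate gave 2, and 1 animal left out 2 to 5; at 24 h against 6 h leaving out 1 animal gave 2 to 5 (2 without 2 ppm animal 205, 6 ppm animal 286 or 6 ppm animal 290), and at 19 days 2 without 0.7 ppm animal 152.

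At 8 against 5 days the counts were 6 in air alone, 2 at 0.7 ppm, 0 at 2 ppm, 0 at 6 ppm and 13 with the covariate. At 8 days against 6 h they were 0 in air, 0 at 0.7 ppm, 5 at 2 ppm and 0 at 6 ppm. Replication minus mitosis medians moved to -0.26 in air, -0.23 at 0.7 ppm and 0.034 at 6 ppm (8 against 5 days), and to 0.07 at 6 ppm (8 days against 6 h). Leaving out 1 animal gave 0 to 1 for 15 ppm minus instillation, 0 to 1 for the 2 ppm mean (1 without 2 ppm animal 233 or air animal 60, 65 or 77), 0 to 1 for 6 ppm at 8 days, and 4 to 14 for the F-test in air.

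Reversed were Ccne2 by its second probe set (-0.003 at 15 ppm, -0.008 at 8 against 5 days) and, at 6 ppm alone for 8 against 5 days, Cdc20 (-0.041), Cdk1 (-0.097), Gins1 (-0.046) and Nusap1 (-0.052). These splits use fewer animals; otherwise the cause was not tested. Pcna kept its call at 15 ppm and after instillation in every alternative run.

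With 4 or 5 animals a group, changes the size of the 6 ppm differences mostly failed the adjustment, so a missing call does not show equal levels. The summarisation of the arrays is unknown, and mixed cell types touch every value.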

Other observations

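Between the 2 sets of air animals collected at 6 h, the differences of the 38 members ranged from -0.47 to 0.45 (later minus first), with medians of -0.09 for mitosis and -0.01 for replication.

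At 6 ppm and 8 days the further mitosis genes lay with the members: 37 of 43 were below air (median -0.27) and 20 had an unadjusted p under 0.05, against 27 of 44 further replication genes (median -0.04) with 4. By limma 0 of either list was called. The lists and members share the same animals, so these counts are not independent of those of the members.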
